A study of Mus musculus with 6 samples.

Results

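The Hedgehog receptors and GLI factors described here are Ptch1, Boc, Cdon, Gas1, Hhip, Smo, Gli1, Gli2 and Gli3. They were chosen by gene symbol: every array feature that the platform annotation assigned to 1 gene symbol equal to a listed name was taken, and the brightest feature was to stand for the gene. Each of the 9 genes had 1 such feature, so no choice between features was needed, and they make up 9 of the 30142 genes compared. RNA came from cancer stem cells of skin squamous cell carcinomas, 3 samples from wild-type (WT) mice and 3 from Sfrp1-/- mice (Sfrp1_KO), which lack a secreted Wnt antagonist. Mice of both genotypes had received DMBA, a mutagen, on 3 days (PD-23, 25 and 27) and then the tumour promoter TPA 2 times a week for 30 to 40 weeks. From the tumours, cells without lineage markers and with Epcam, α6 integrin and CD34 on the surface were sorted, and each sample was hybridised to 1 Affymetrix MTA 1.0 array. The labels leave out the deleted part of Sfrp1, whether samples were pooled or whether each came from its own mouse, and what the p-values measure is therefore sample-to-sample spread, some of which may be technical.

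Hedgehog ligands bind Patched, the receptor encoded by Ptch1, and so lift its block on Smoothened, the transmembrane protein encoded by Smo. Smoothened then acts at the primary cilium to keep the GLI proteins from being processed into repressors, and GLI activators switch on target genes that include Ptch1, Gli1 and Hhip themselves. Boc, Cdon and Gas1 encode cell surface co-receptors that help Patched to bind ligand, and Hhip encodes a protein that captures it. In skin the pathway is known for hair follicle growth and its signalling to the dermal papilla, and its activation by mutation underlies basal cell carcinoma.

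All values are deposited log2 signals, and a difference is Sfrp1_KO minus WT in these log2 units. Deposited values reached 19.93, past the 16 log2 units that a scanner of 16 bits can give. A stretch or shift that no source used here explains is thus part of the scale, and differences are not given as folds. As background level the highest of the array's 23 background probe sets was used, between 4.82 and 5.10. A gene was counted as above background in a genotype where all 3 arrays exceeded that level. The tested threshold was an adjusted p under 0.05 by limma over all 30142 genes, which 989 genes (3.28%) passed. Of the sort, the α6 integrin gene Itga6 (9.51 ± 0.64 in WT, 7.62 ± 0.18 in Sfrp1_KO; SD, n = 3) and Cd34 (9.42 ± 0.15 and 10.99 ± 0.71) stood above background on all arrays, whereas Epcam (7.59 ± 1.03 and 5.03 ± 0.17) did so on 3 WT arrays and on 1 Sfrp1_KO array. On the other Sfrp1_KO arrays Epcam, which the sort required, was under background. Itga6 (-1.89, limma adjusted p = 0.0292) and Epcam (-2.56, adjusted p = 0.0455) passed the test as lower in Sfrp1_KO. Both calls ended without any 1 Sfrp1_KO array (limma adjusted p up to 0.184) and with the replicate number as a block. Cd34 was higher in Sfrp1_KO but did not pass (1.57, limma adjusted p = 0.0714), and it passed without Sfrp1_KO replicate 3 (adjusted p = 0.00664). Sfrp1 stood at 5.75 ± 0.30 and 5.12 ± 0.03 (SD, n = 3; limma adjusted p = 0.0969), above background on 3 WT arrays and on 2 of the 3 Sfrp1_KO arrays.

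None of the 9 Hedgehog genes passed the limma test (989 of all genes, 3.28%, did), while 2 of them, Boc and Ptch1, had an unadjusted limma p under 0.05, as did 14.4% of all genes. Without moderation of the variances none passed after adjustment, and 1 had an unadjusted p under 0.05 (12.7% of all genes). Ptch1, Gli3, Smo and Boc stood above background on all 6 arrays. Gli1 did so on every Sfrp1_KO array and on 1 WT array, Cdon on 1 array of each genotype and Gas1 on 1 WT array, and Gli2 and Hhip on none. The arrays of the genotypes did not overlap for Ptch1, Boc and Smo, 3 of 9 genes, against 19.9% of all genes. Among all genes above background on all 6 arrays, as these 3 were, 29.3% did not overlap and 6.12% passed the limma test. Sfrp1_KO arrays lay above WT arrays for 1 of the 9 (9.1% of all genes) and below them for 2 (10.8%). The median difference of the 9 genes was 0.02, and that of all genes was -0.01. With 3 arrays a genotype, a two-sided exact permutation test cannot give a p below 0.1.

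**Figure D1:**
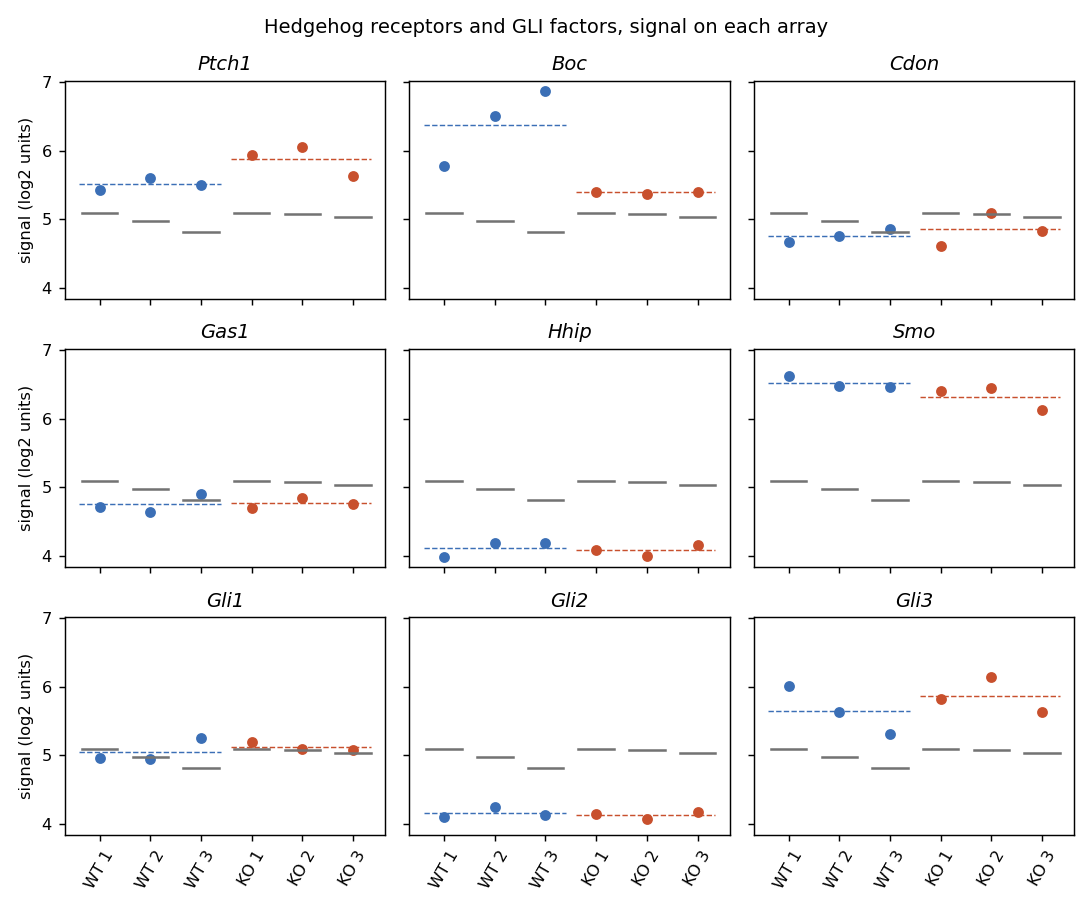
Signal of the 9 Hedgehog genes in log2 units (y axis) on each of the 6 arrays (x axis); blue points are WT arrays, orange points are Sfrp1_KO arrays, dashed lines are genotype means and grey bars are the highest background probe set of that array. Boc lies between 5.77 and 6.87 on WT arrays and between 5.37 and 5.40 on Sfrp1_KO arrays, while Gli2 and Hhip lie under the grey bars throughout.

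Ptch1, the ligand receptor and itself a target of GLI proteins, had a somewhat higher mean signal in Sfrp1_KO. It read 5.42, 5.60 and 5.50 on WT arrays 1 to 3 and 5.94, 6.05 and 5.63 on Sfrp1_KO arrays 1 to 3. Each Sfrp1_KO array lay above each WT array, but Sfrp1_KO replicate 3 did so by 0.03 only. The difference was 0.37 (SE 0.13, 95% CI 0.06 to 0.67; limma adjusted p = 0.238). An exact permutation test, two-sided, gave p = 0.1. Its adjusted p ran from 0.0947 without Sfrp1_KO replicate 3 to 0.541 without Sfrp1_KO replicate 2. In bulk samples such as these, a change in the share of cells that express a gene and a change in RNA per cell cannot be told apart.

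The promoters of Ptch1 and Smo are shown because both genes were above background on all arrays and are the ones of the 3 without overlap for which the RefSeq table (build GRCm38.p6) held a sequence. Each is the 250 bases before the gene's start, 5′ to 3′ on the gene's strand, with the GC box letters GGGCGG or CCGCCC in capitals. Ptch1 lies at chr13:63565736-63565985 on the minus strand and Smo at chr6:29735247-29735496 on the plus strand.
Ptch1: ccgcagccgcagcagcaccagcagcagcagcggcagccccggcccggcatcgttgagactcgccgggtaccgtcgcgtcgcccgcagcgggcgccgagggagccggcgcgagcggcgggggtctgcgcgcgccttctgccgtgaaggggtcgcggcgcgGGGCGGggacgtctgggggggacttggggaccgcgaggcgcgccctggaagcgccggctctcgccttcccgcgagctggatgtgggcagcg
Smo: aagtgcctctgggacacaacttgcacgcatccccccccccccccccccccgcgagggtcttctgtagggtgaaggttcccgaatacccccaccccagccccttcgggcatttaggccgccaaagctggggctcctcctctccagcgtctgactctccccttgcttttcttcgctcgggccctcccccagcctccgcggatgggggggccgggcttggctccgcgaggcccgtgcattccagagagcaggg
The Ptch1 stretch was 78.4% G or C and held 41 CpG and 1 GC box, and the Smo stretch was 68.4% G or C with 15 CpG and no GC box. The table held promoters for 7 of the 9 genes, namely Cdon, Gas1, Gli2, Gli3, Hhip, Ptch1 and Smo. The GLI consensus GACCACCCA, searched on both strands, was in none of these 7 stretches and in 0.225% of all 32851 promoter stretches of the same length. Its core CCACCCA, which lies within it, was likewise in none of the 7 and in 8.11% of all. The GC box was in 5 of the 7 (all but Cdon and Smo) and in 32.7% of all. These are matches of letters, and say nothing about binding outside the window or by a factor.

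Boc, a co-receptor of Patched, had the largest difference of the 9 genes, though it did not pass the test. It read 5.77, 6.51 and 6.87 on the WT arrays and 5.40, 5.37 and 5.40 on the Sfrp1_KO arrays. The WT arrays spread over 1.11 log2 units and the Sfrp1_KO arrays over 0.04, and the lowest WT array, replicate 1, lay 0.36 above the highest Sfrp1_KO array. The difference was -0.99 (SE 0.27, 95% CI -1.63 to -0.35; limma adjusted p = 0.13). By exact permutation, two-sided, p was 0.1. Boc passed with arrays weighted by quality (-1.12, limma adjusted p = 0.0426) and when WT replicate 1 was left out (-1.30, limma adjusted p = 0.0144), and over all alternatives its adjusted p ran from 0.0144 to 0.355. The 3 Sfrp1_KO arrays were still above their background level, by a margin smaller than that of any WT array.

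The other co-receptors were near background, so that little can be said of their levels. Cdon, a relative of Boc, read 4.66, 4.75 and 4.86 on the WT arrays and 4.61, 5.09 and 4.83 on the Sfrp1_KO arrays, with a difference of 0.09 (SE 0.14, 95% CI -0.24 to 0.42; limma adjusted p = 0.882). Gas1, whose product is anchored to the membrane by a lipid, read 4.71, 4.64 and 4.90 in WT and 4.70, 4.84 and 4.76 in Sfrp1_KO. The genotypes overlapped for both genes. The fitted Gas1 difference was 0.02 (limma adjusted p = 0.984), and with every Sfrp1_KO array under background no size can be read from it. Hhip, the ligand-capturing inhibitor and a GLI target, was under background on all 6 arrays, at 4.12 ± 0.11 in WT and 4.08 ± 0.07 in Sfrp1_KO (SD, n = 3). No genotype difference in Hhip can be read at that signal.

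Smo, the transducer that Patched holds in check, differed little between genotypes. It read 6.63, 6.48 and 6.47 in WT and 6.41, 6.45 and 6.12 in Sfrp1_KO. The Sfrp1_KO arrays all lay below the WT arrays, with a gap of 0.02 between the nearest arrays and most of the difference in means coming from replicate 3. The difference was -0.20 (SE 0.11, 95% CI -0.47 to 0.08; limma adjusted p = 0.547). By exact permutation, two-sided, p was 0.1. Without Sfrp1_KO replicate 3 the difference was -0.09.

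Of the transcription factors at the end of the pathway, Gli3, which acts mainly as a repressor, was above background on all arrays. It read 6.01, 5.64 and 5.31 in WT and 5.82, 6.15 and 5.64 in Sfrp1_KO. The genotypes overlapped, with the highest WT array above 2 of the 3 Sfrp1_KO arrays. The Gli3 difference was 0.22 (SE 0.21, 95% CI -0.28 to 0.72; limma adjusted p = 0.773), and it ran from 0.05 to 0.40 when single arrays were left out. Gli1, an activator and the most used transcriptional readout of the pathway, read 4.96, 4.95 and 5.25 in WT and 5.19, 5.09 and 5.08 in Sfrp1_KO. All of these were close to the background level, and the genotypes overlapped (difference 0.07, SE 0.11, 95% CI -0.19 to 0.32; limma adjusted p = 0.891). Gli2, the main activator downstream of Smoothened, was under background on all 6 arrays, at 4.10 to 4.25 in WT and 4.07 to 4.18 in Sfrp1_KO. Two-sided exact permutation tests gave p = 0.6 for Gli1 and p = 0.4 for Gli3.

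**Figure D2:**
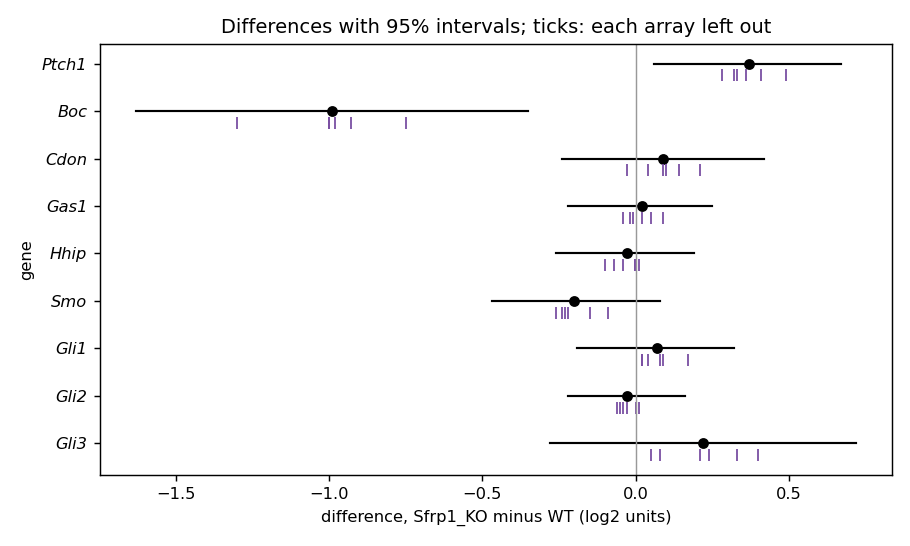
Difference between genotypes (x axis, Sfrp1_KO minus WT in log2 units) for each of the 9 Hedgehog genes (y axis); points are limma estimates, black lines their 95% intervals, and purple ticks the estimates with each array left out in turn. The intervals of Ptch1 (0.06 to 0.67) and Boc (-1.63 to -0.35) do not include 0, while neither gene passed after adjustment over all genes.

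For each of the 5 Hedgehog genes above background in at least 1 genotype, the 3 genes with the most similar pattern were sought. Likeness was the root mean square distance over the 6 arrays between signals centred on each gene's own mean, among 7602 other genes above background on at least 3 arrays, leaving out predicted genes, Riken clones, pseudogenes, microRNAs, small nucleolar RNAs, and olfactory and vomeronasal receptors by their names. Nearest to Ptch1 were Mtmr2, a lipid phosphatase gene (distance 0.0298), Gas2l3 (0.0532) and the guanine exchange factor gene Trio (0.0545). Nearest to Boc were Capns2, which encodes a calpain subunit (0.0898), Phyhip (0.119) and Nipal2 (0.164), and these 3 lay further from Boc than the nearest genes of the other 4 lay from them. Of these, Nipal2 passed the test (limma adjusted p = 0.0314 for the unbounded difference), while Capns2 (-0.98, adjusted p = 0.175) and Phyhip (adjusted p = 0.0827) did not. Nipal2 and Phyhip were above background on the 3 WT arrays and under it on the 3 Sfrp1_KO arrays, and were lower there by at least 0.39 and 0.59. Smo was nearest to Tmbim1 (0.0324), Pdcd6ip (0.0375) and Fig4 (0.0376). Gli3 was nearest to the ceramide synthase gene Cers6 (0.0575), the splicing factor gene Rbm39 (0.0603) and Xbp1, a factor of the unfolded protein response (0.0729). Gli1 was nearest to Mpc1 (0.0325), Fbxl14 (0.0346) and Rrp15 (0.0413). Genes whose signal hardly moves are near to many others, so these distances describe the arrays only. The neighbours were picked on these same signals, so a fall that they share with Boc follows from how they were chosen and is no separate result.

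**Figure D3:**
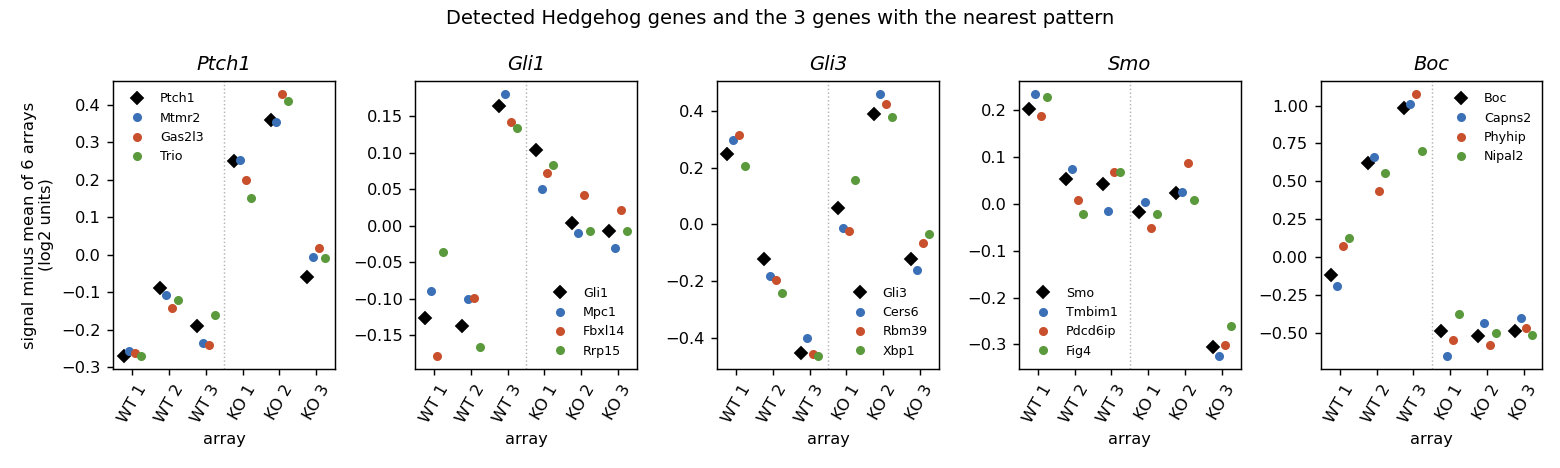
Signal minus the gene's mean over the 6 arrays, in log2 units (y axis, with its own range in each panel), on each array (x axis) for Ptch1, Gli1, Gli3, Smo and Boc (black diamonds) and the 3 genes nearest to each (coloured points); the dotted line divides WT from Sfrp1_KO arrays. Boc and its neighbours are low on all 3 Sfrp1_KO arrays and lower on WT replicate 1 than on the other WT arrays.

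Upstream of the receptors, signal for the ligands was not above background. Of 13 genes for ligands, their processing and their release, 1 rose, none fell and 12 did not pass (percent called over all genes 3.28%), with a median difference of -0.01. Shh, Ihh and Dhh, which encode the 3 ligands, were under background on all arrays, Shh at 4.67 to 4.73 in WT and at 4.52 to 4.80 in Sfrp1_KO. Scube3, whose family helps to release ligand from the cell, rose from 4.53 ± 0.01 to 5.19 ± 0.17 (SD, n = 3), by at least 0.23 (limma adjusted p = 0.0246 for the unbounded difference). It was under background on all WT arrays and above it on 2 of 3 Sfrp1_KO arrays. The call of Scube3 ended without Sfrp1_KO replicate 1 or 2 or any 1 WT array (limma adjusted p up to 0.107) and with the replicate number as a block. Disp1, which exports ligand, was at 4.45 ± 0.14 and 4.90 ± 0.06 (limma adjusted p = 0.0771), under background throughout, and passed without WT replicate 1 (adjusted p = 0.0458) and with array weights (adjusted p = 0.0308).

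Between Smoothened and the GLI proteins, 2 of the 4 listed genes of protein kinase A, which primes GLI proteins for processing, rose in Sfrp1_KO, while Prkaca and Prkar1a did not pass. Of 28 measured transducers and GLI regulators 3 rose, none fell and 25 did not pass (over all genes 1.83% rose and 1.45% fell), with a median difference of 0.09. Prkar2b, a regulatory subunit of the kinase, read 5.17, 5.24 and 5.21 in WT and 6.18, 6.30 and 6.21 in Sfrp1_KO, and rose by 1.02 (SE 0.07, limma adjusted p = 0.00263). Prkacb, a catalytic subunit, read 5.47, 5.81 and 5.34 in WT and 6.71, 6.88 and 6.69 in Sfrp1_KO, and rose by 1.22 (SE 0.14, limma adjusted p = 0.0094). For both genes the genotypes lay far apart for the spread within them, by 0.95 and 0.89 log2 units. Tulp3, which brings receptors into the cilium, was under background in WT (4.52 ± 0.03) and above it in Sfrp1_KO (5.18 ± 0.01; SD, n = 3), a difference of at least 0.22 against the WT background level (limma adjusted p = 0.00808 for the unbounded difference). Prkar2b and Tulp3 passed without any 1 array, and Prkacb did not without Sfrp1_KO replicate 2 (limma adjusted p = 0.053). Sufu, the inhibitor that binds GLI proteins, was at 5.74 ± 0.05 and 5.62 ± 0.10 (SD, n = 3; limma adjusted p = 0.653).

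**Figure D4:**
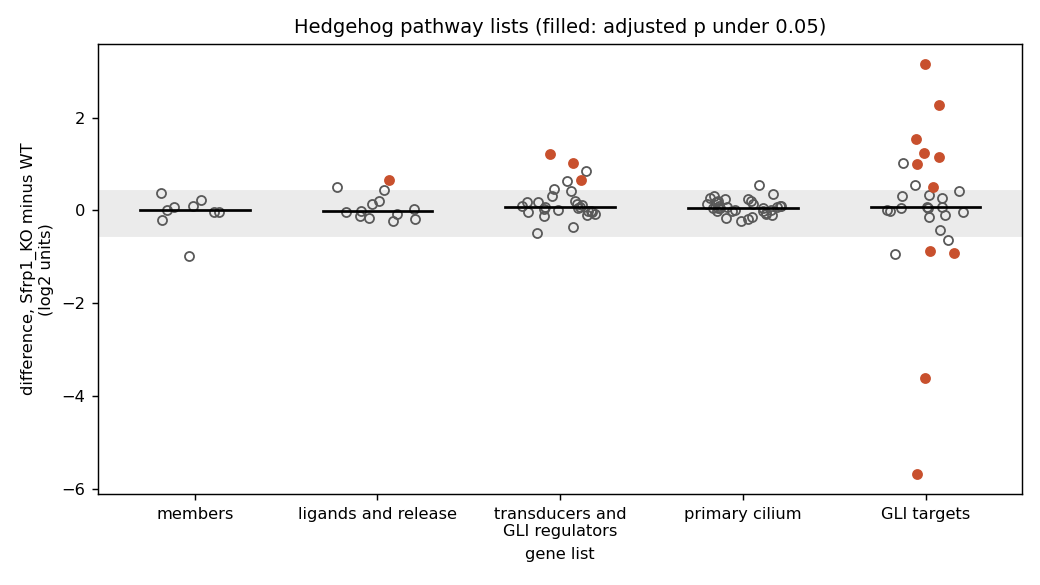
Difference between genotypes (y axis, Sfrp1_KO minus WT in log2 units) for each measured gene of 5 Hedgehog lists (x axis); filled points passed the limma test, open points did not, black bars are list medians and the grey band runs from the 5th to the 95th percentile of all genes, -0.54 to 0.43. The 9 receptors and GLI factors ("members") hold no filled point, and the GLI targets hold 7 above 0 and 4 below.

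None of 32 measured genes of the primary cilium and its transport machinery passed the limma test, although 7 had an unadjusted limma p under 0.05 (14.4% of all genes did) and 5 without moderation of the variances (12.7% of all genes), where none passed after adjustment either. Of these genes 17 were under background on all arrays, and the list median was 0.06. The smallest p-values were those of Ift57 (5.48 ± 0.15 in WT and 5.84 ± 0.08 in Sfrp1_KO; SD, n = 3; limma adjusted p = 0.152), Ift80 (4.62 ± 0.03 and 4.86 ± 0.11; adjusted p = 0.254) and Ift74 (5.31 ± 0.07 and 5.56 ± 0.11; adjusted p = 0.275), all parts of the intraflagellar transport complex.

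Genes listed as GLI targets went both ways. Of 29 measured targets other than the 9 genes above, 7 rose, 4 fell and 18 did not pass (over all genes 1.83% rose and 1.45% fell), and the median difference was 0.07. Osr2, a zinc finger factor, rose from background (4.29 ± 0.10) to 6.57 ± 0.29 (SD, n = 3), by at least 1.61 (limma adjusted p = 0.00205), and its relative Osr1 rose from background by at least 0.81 (adjusted p = 0.0184). Prdm1, the transcriptional repressor Blimp1, rose from background by at least 0.95 (limma adjusted p = 0.00523). The p-values of Osr2, Osr1 and Prdm1 are for the unbounded differences. Igfbp6, an IGF-binding protein gene, rose by 3.15 (SE 0.52, limma adjusted p = 0.0296), the BMP antagonist gene Grem1 by 1.55 (SE 0.28, adjusted p = 0.0394) and Tgfb2 by 1.01 (SE 0.14, adjusted p = 0.0181). The remaining gene that rose, Snai1, was under background on all arrays.

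Among the targets that fell, Krt17, a keratin of hair follicle and injured epidermis, fell by at least 4.97, from 10.04 ± 1.05 (SD, n = 3) to background (limma adjusted p = 0.00441). The cyclin gene Ccnd2 stood at 9.34 ± 0.86 in WT and 5.73 ± 0.08 in Sfrp1_KO (SD, n = 3; difference -3.61, SE 0.40, limma adjusted p = 0.00895). Ccne1, another cyclin gene, fell to background by at least 0.69 (limma adjusted p = 0.0279). The Notch ligand gene Jag2 had a difference of -0.88 (SE 0.13, limma adjusted p = 0.0225). The p-values of Krt17 and Ccne1 are for the unbounded differences. Krt17, Osr2 and Prdm1 passed without any 1 array. Of the other targets named, Ccnd2, Ccne1, Grem1, Igfbp6, Jag2 and Osr1 were not called without Sfrp1_KO replicate 2 (limma adjusted p up to 0.132). Calls also ended without Sfrp1_KO replicate 1 (Ccne1, Grem1, Igfbp6, Jag2, Osr1 and Tgfb2; limma adjusted p up to 0.142), WT replicate 1 (Grem1, Igfbp6, Jag2, Osr1 and Tgfb2), WT replicate 2 (Ccne1, Grem1, Igfbp6, Jag2 and Tgfb2), WT replicate 3 (Ccne1, Grem1, Igfbp6, Osr1 and Tgfb2) or Sfrp1_KO replicate 3 (Ccne1 and Jag2). With the replicate number as a block, Ccne1, Grem1, Igfbp6, Jag2 and Osr1 were not called. Sfrp1, the deleted gene, is itself in this list.

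Markers of some cell types differed between the genotypes. Of 12 basal keratinocyte markers 9 fell (over all genes 1.83% rose and 1.45% fell), while 1, Dst, was higher in Sfrp1_KO without passing (0.64, limma adjusted p = 0.139). The mean signal of the 12 was 9.37 to 9.77 on WT arrays and 5.79 to 5.88 on Sfrp1_KO arrays. All 12 were above background on every WT array, and 7 of them on every Sfrp1_KO array. Krt5, the basal keratin, stood at 17.39 ± 0.50 and 6.64 ± 0.30 (SD, n = 3). Its partner keratin gene Krt14 fell by 7.45 (SE 0.48, limma adjusted p = 0.0019), and the desmosome gene Dsp by 5.84 (SE 0.27, adjusted p = 0.000527). Of 10 dermal papilla and sheath markers, cells in which Hedgehog signals are received in the hair follicle, 3 rose, Crabp1 (6.02, SE 0.47), Sox2 (2.04, SE 0.34) and Vcan (1.84, SE 0.20; limma adjusted p = 0.00348, 0.0316 and 0.00825). The Sox2 call ended without WT replicate 1 or 2 or any 1 Sfrp1_KO array (limma adjusted p up to 0.129), and with the replicate number as a block. The median difference of that list was 0.03, and its mean signal was 5.04 to 5.20 in WT and 5.90 to 6.17 in Sfrp1_KO. Sox18, Corin, Alpl, Lef1, Prom1 and Rspo3 were under background on all 6 arrays. The remaining marker, Acta2, was above background on all 6 arrays and lower in Sfrp1_KO without passing (-0.62, limma adjusted p = 0.784).

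Of 13 fibroblast markers 2 rose and 1 fell (over all genes 1.83% rose and 1.45% fell). The mean signal of the 13 overlapped, at 5.56 to 6.69 in WT and 6.09 to 6.62 in Sfrp1_KO, with WT replicate 3 at the upper end and Fap under background throughout. Pdgfrb, a growth factor receptor gene, rose from 5.05 ± 0.23 to 8.77 ± 0.78 (SD, n = 3; limma adjusted p = 0.00696), and Thy1, a surface glycoprotein gene, by 0.89 (SE 0.14, adjusted p = 0.0237). The matrix gene Fbln1 fell to background by at least 0.78 (limma adjusted p = 0.00394 for the unbounded difference). The 2 brightest of the list went in opposite directions and did not pass. Postn stood at 9.57 ± 1.87 in WT and 6.23 ± 0.22 in Sfrp1_KO (SD, n = 3; limma adjusted p = 0.117), and Dcn at 7.90 ± 2.31 and 10.48 ± 0.59 (adjusted p = 0.356). Both passed without WT replicate 3 (limma adjusted p = 0.0107 and 0.0105). Pdgfrb and Fbln1 passed without any 1 array, whereas the Thy1 call ended without Sfrp1_KO replicate 1 or 2 or any 1 WT array (limma adjusted p up to 0.10) and with the replicate number as a block. None of 11 leukocyte markers passed, while 7 of them had Sfrp1_KO arrays all above WT arrays (9.1% of all genes did). Their mean signal was 4.43 to 4.53 in WT and 4.70 to 5.38 in Sfrp1_KO, and Ptprc, Adgre1, Csf1r and Cd3e were under background on all arrays. None of the 9 endothelial, 10 pericyte and smooth muscle, 8 melanocyte and Schwann cell, 8 skeletal muscle and 5 adipocyte markers passed. Without Sfrp1_KO replicate 3, the leukocyte marker Lyz2 and the endothelial marker Cdh5 passed as higher (limma adjusted p = 0.0352 and 0.0337). The pericyte marker Mcam (-1.45, limma adjusted p = 0.0552) passed without WT replicate 2 (adjusted p = 0.00403) and with array weights (adjusted p = 0.0345). The part of the cell type markers in the differences of the Hedgehog genes was not tested.

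**Figure D5:**
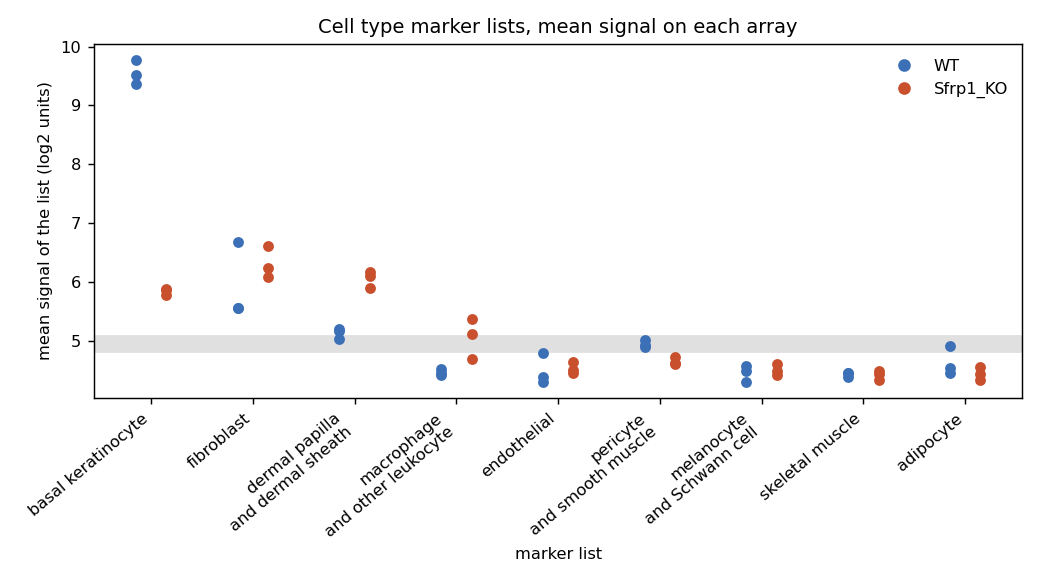
Mean signal in log2 units (y axis) of each cell type marker list (x axis) on each array; blue points are WT arrays, orange points are Sfrp1_KO arrays, and the grey band is the range of the background level over arrays. The mean of the basal keratinocyte markers lies at 9.37 to 9.77 in WT and at 5.79 to 5.88 in Sfrp1_KO. The list means of endothelial, pericyte, melanocyte, skeletal muscle and adipocyte markers lie in or near the grey band in both genotypes, though single genes of these lists may not.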

How the data were processed

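The values used are the deposited log2 signals. The submitters' processing notes name RMA and Affymetrix Expression Console; their versions, the summarisation level and the annotation build were not given in the sources used here. Of 65956 transcript clusters 30604 had 1 gene symbol in the platform annotation, 2146 had several and 33206 had none listed. Symbols were updated by gene identifier through a RefSeq table of assembly GRCm38.p6 (22818 features matched), and the brightest feature per gene left 30142 genes. The genotype contrast was fitted in limma 3.58.1 (R 4.3.3; lmFit and eBayes, with two-sided p-values adjusted over all genes by Benjamini-Hochberg), and single genes were compared with exact permutation tests in scipy 1.17.1. A difference against a genotype with every array under background is written as "at least", the brighter mean minus the mean background level of the dimmer genotype's arrays. No set test was run. Precision is limited by the number of arrays.

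The 9 genes and the lists were chosen with earlier results of these data known. The text names genes by rule: the 9 genes, Sfrp1 and the sort genes, up to 6 called genes per direction in each pathway list (or the smallest p-values where fewer than 3 passed), the called markers (up to 3 a list) and the brightest, of which the text prints some, and the 3 nearest patterns. Shh, Ihh, Sufu, Prkaca, Prkar1a, Snai1 and Dst, and the markers named as under background, were named outside it after their values were seen. A simulation of this comparison (30142 genes) recovered 31 of 50 genes changed by 1 log2 unit and 40 of 50 changed by 2. It made 173 calls, 7 of them false. The number of changed genes was set beforehand, so this total cannot be compared with the 989 calls in the data. Changed genes were drawn only from those with a mean signal above the median of all genes. Recovery was not split by signal level either, so it says nothing about genes under background such as Gli2 and Hhip. Alternatives were the replicate number as a block, other feature choices, another normalization, array weights, other variance models, a minimum difference, other background levels and each array left out. The labels do not say that the replicate numbers pair samples, so the numbers were not taken to do so. Same-numbered arrays deviated from their genotype means with correlations across genes of 0.18, -0.122 and 0.171. For differently numbered arrays these ran from -0.332 to 0.253, so the correlations do not settle the question.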

Additional observations from a re-analysis of the deposited data

How the results depend on the processing

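Ptch1, Gli1, Gli3 and Smo kept their direction and stayed short of the threshold under all alternatives run for them, and Boc kept its direction under all. Boc passed with array weights (-1.12, limma adjusted p = 0.0426) and without WT replicate 1 (-1.30), so that 1 of the 9 genes was called in those settings and none in the others, and its difference ran from -1.30 to -0.75 over single arrays left out. Gas1 turned to -0.02 with array weights. Over single arrays left out Gas1 ran from -0.04 to 0.09, Gli2 from -0.06 to 0.01, Cdon from -0.03 to 0.21 and Hhip from -0.10 to 0.01, all near or under background. The cause of these turns was not tested. The replicate block changed no call of the 9 genes. It gave 297 genes higher and 238 lower (535 in all), 0 called ligand genes and 5 called GLI targets. Without moderation of the variances 14 genes were higher and 21 lower (35), with 0 ligand genes and 0 targets. Quantile normalization once more gave 892 higher genes and 5 called transducers, array weights gave 2 called ligand genes, and requiring a difference of 1 log2 unit or more left 295 higher and 244 lower genes (539) and 0 ligand genes. With single arrays left out, 191 to 487 genes were higher and 100 to 407 lower (291 to 753 in all), with 0 to 1 of the 9 genes, 0 to 1 ligand genes and 4 to 9 targets called. The split of higher calls, 55.8% with all arrays, was 71.9% without Sfrp1_KO replicate 3 and 45.3% without WT replicate 3. Against the second highest background probe set 4 of the 9 genes were above background on all arrays, as against the highest, and against the median of the background probe sets all 9 were. Gli2 and Hhip have no value with dim genes left out. Signal close to background limits what can be said of Gli1, Gli2, Hhip, Cdon and Gas1.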
